A study of Mus musculus with 4 samples.

Results

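Oxidative phosphorylation genes were followed through the cell types of the mouse hypothalamus. Members were chosen by symbol alone, as genes whose names begin with mt-Nd, mt-Co, mt-Atp or mt-Cyt, with Nduf followed by a, b, c, s or v, with Uqcr, with Cox followed by a digit from 4 to 8, or with Atp5, together with Sdha, Sdhb, Sdhc and Sdhd. The rule found 107 of the 32285 counted genes, 13 encoded in the mitochondrial genome and 94 in the nucleus. Ndufb1-ps, which the rule includes, is annotated as a non-coding RNA and not as a protein-coding gene.

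Oxidative phosphorylation runs in the inner mitochondrial membrane. Complexes I and II pass electrons from NADH and succinate to complex III, which hands them through cytochrome c to oxygen at complex IV, and the proton gradient built on the way drives the ATP synthase, complex V. Subunits of every complex but complex II come from both genomes, which is why the 2 sets are reported apart; neurons are known for a high demand on the pathway.

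Nuclei were isolated from snap-frozen hypothalamus of adult male mice, either wild type (WT) or TRα1+m, which are heterozygous for a point mutation that lowers the affinity of thyroid hormone receptor α1 for its hormone in all cells that make the receptor. Each library pooled 3 mice of 1 genotype, and each of 2 experimental repeats held a WT and a TRα1+m library, so n = 2 libraries per genotype from 6 mice each. Droplet-based RNA-seq counted unique molecular identifiers (UMIs), introns included, and the authors' clusters were used as annotated. The p-values treat each pool as 1 replicate and lean on a spread shared over genes. Where a fit holds both genotype and repeat, 1 residual degree of freedom is left. Its p-values do not measure the spread between pools of a single gene. An exact permutation of 2 against 2 libraries cannot go below a two-sided p of 0.333.

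Kept nuclei numbered 11976 to 16435 per library and held 47260127 to 59112785 UMIs. Markers fitted the labels of the main clusters. Summed oligodendrocyte markers averaged 12786 CPM (UMIs scaled to a common library total of 1e+06) in oligodendrocytes and 254 CPM in Neurons_1. Summed microglial markers averaged 4357 CPM in the microglia and macrophage cluster and 52.0 CPM in Neurons_1. In their own clusters both lists were higher in repeat 2. Oligodendrocyte markers stood at 7911 (WT) and 7030 CPM (TRα1+m) in repeat 1 and at 16417 and 19788 CPM in repeat 2. Microglial markers stood at 2401 and 2052 CPM and then at 5775 and 7200 CPM. Summed neuronal markers stood at 3481 CPM in Neurons_1, but in glia still at 708 CPM in astrocytes to 1001 CPM in microglia and macrophages. Oligodendrocyte markers stood at 1068 CPM in the microglia and macrophage cluster. How much RNA of other cells the nuclei held was not tested. The microglia and macrophage cluster also held mural markers at 707 CPM and pituitary markers at 554 CPM, and the neuronal sub-cluster labelled MCH held endothelial markers at 1408 CPM, against 62.5 CPM over all of Neurons_1. Pairs of libraries shared 44 to 64 barcodes among kept nuclei. Neurons_2 came almost wholly from 1 library, with 852 nuclei in the TRα1+m library of repeat 2 and 1 to 6 in the others, and is left out of the comparisons.

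The mitochondrial genes lie close together, and some share bases. On GRCm38, mt-Atp8 (chrM:7766-7969, plus strand) and mt-Atp6 (chrM:7927-8607), the subunits of the ATP synthase encoded there, overlap by 43 bases, which is 21.1% of mt-Atp8. The overlap is shown because reads within it cannot be told apart between the genes, so that the low counts of mt-Atp8 are uncertain. Capitals mark the shared bases, at chrM:7927-7969, with 15 bases on either side.
mt-Atp8 and mt-Atp6: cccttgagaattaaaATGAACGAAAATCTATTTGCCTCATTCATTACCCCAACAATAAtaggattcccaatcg
The shorter overlap of mt-Nd4l and mt-Nd4, both complex I subunits, covers 7 bases at chrM:10167-10173.
mt-Nd4l and mt-Nd4: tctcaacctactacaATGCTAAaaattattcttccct

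Mitochondrial transcripts took a larger part of the UMIs in glia than in neurons. In Neurons_1 the 13 genes held 0.939% of UMIs in WT repeat 1, 1.17% in WT repeat 2, 0.831% in TRα1+m repeat 1 and 0.763% in TRα1+m repeat 2. In oligodendrocytes the corresponding shares were 2.31%, 2.44%, 1.97% and 1.79%. Every library thus held a higher share in oligodendrocytes than in Neurons_1. Astrocytes held 1.56% to 2.12%, oligodendrocyte progenitor cells (OPCs) 1.39% to 1.96%, and the microglia and macrophage cluster 1.71% to 2.47%. The ranges of the 4 glial clusters overlapped. No test was made between cell types, since the clusters were built from the same counts.

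The 94 nuclear members were likewise lowest in Neurons_1. They held 0.503% to 0.770% of UMIs in Neurons_1, 0.655% to 1.17% in OPCs, 0.809% to 1.51% in astrocytes, 0.866% to 1.82% in oligodendrocytes and 0.966% to 1.91% in microglia and macrophages. The lowest value of each of these ranges was the TRα1+m library of repeat 2. The shares rest on a filter: no kept nucleus had more than 5.00% mitochondrial UMIs, and the barcodes outside the annotation held 3.08% to 4.54%.

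**Figure D1:**
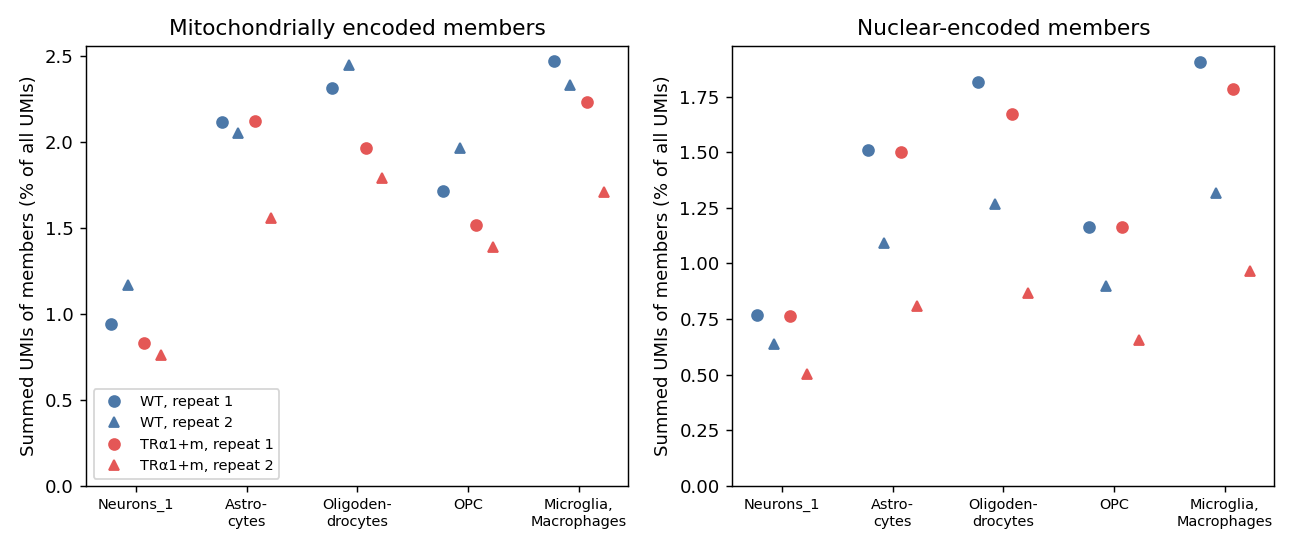
Summed UMIs of the 13 mitochondrially encoded members (left) and the 94 nuclear-encoded members (right) as percent of all UMIs, per library and main cluster; colours give the genotype and shapes the experimental repeat. Neurons_1 lies below the glial clusters in each library, and both sets are lowest in the TRα1+m library of repeat 2.

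Counted per nucleus, Neurons_1 no longer lay below the glia on average, and the cell types differed less than in total UMIs. A nucleus of Neurons_1 held 4855 ± 646 UMIs (SD, n = 4 libraries) and an oligodendrocyte nucleus 1729 ± 170, a ratio of 2.80 ± 0.13 within libraries. Of these UMIs, 45.3 ± 13.4 per Neurons_1 nucleus and 36.9 ± 7.4 per oligodendrocyte nucleus were mitochondrial, a ratio of 1.21 ± 0.12. The nuclear members gave 32.0 ± 4.1 and 23.9 ± 5.9 UMIs, a ratio of 1.38 ± 0.24. In both sets the ratio stayed below that of all UMIs in every library. Against OPCs, whose nuclei held fewer UMIs than those of Neurons_1 by a factor of 1.79 ± 0.07, the mitochondrial ratio was 1.01 ± 0.05 and that of the nuclear members 1.26 ± 0.14. Against microglia and macrophages, with a ratio of all UMIs of 3.00 ± 0.24, they were 1.28 ± 0.26 and 1.39 ± 0.27. Against astrocytes, with a ratio of all UMIs of 2.32 ± 0.09, they were 1.10 ± 0.20 and 1.29 ± 0.18. The repeats differed in the mitochondrial ratio. In repeat 1 it was 0.996 (WT) and 0.882 (TRα1+m) against astrocytes, and 0.951 and 0.967 against OPCs. In repeat 2 it was 1.34 and 1.19 against astrocytes, and 1.06 and 1.05 against OPCs.

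The Rps and Rpl genes showed a like pattern, with a neuron to oligodendrocyte ratio of 1.18 ± 0.12. They were picked by symbol, as Rps or Rpl followed by a digit, Rplp or Rpsa. The set thus holds genes of the cytosolic ribosome and any other gene so named. Nuclei of Neurons_1 were then ranked by non-mitochondrial UMIs and split into 4 bins of equal size within each library. The deepest bin held 3.06 to 3.39 times as many of these UMIs as the shallowest, while mitochondrial UMIs were higher by a factor of 1.58 to 1.81 and those of the nuclear members by 1.49 to 1.88. The share of these genes was therefore lower at higher depth within Neurons_1 as well as between Neurons_1 and the glial clusters. Neurons_1 is not a single cell type: the mitochondrial share was 1.27% to 2.36% in its MCH sub-cluster and 0.753% to 1.16% in GABA neurons. The UMIs used for the ranking are also part of the total that the share is taken from. What part either had in the bins was not tested. In WT repeat 1, for example, the mitochondrial share was 1.45% in the shallowest bin and 0.709% in the deepest. Mitochondrial transcripts are made outside the nucleus, and from which compartment the counted molecules came was not tested.

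**Figure D2:**
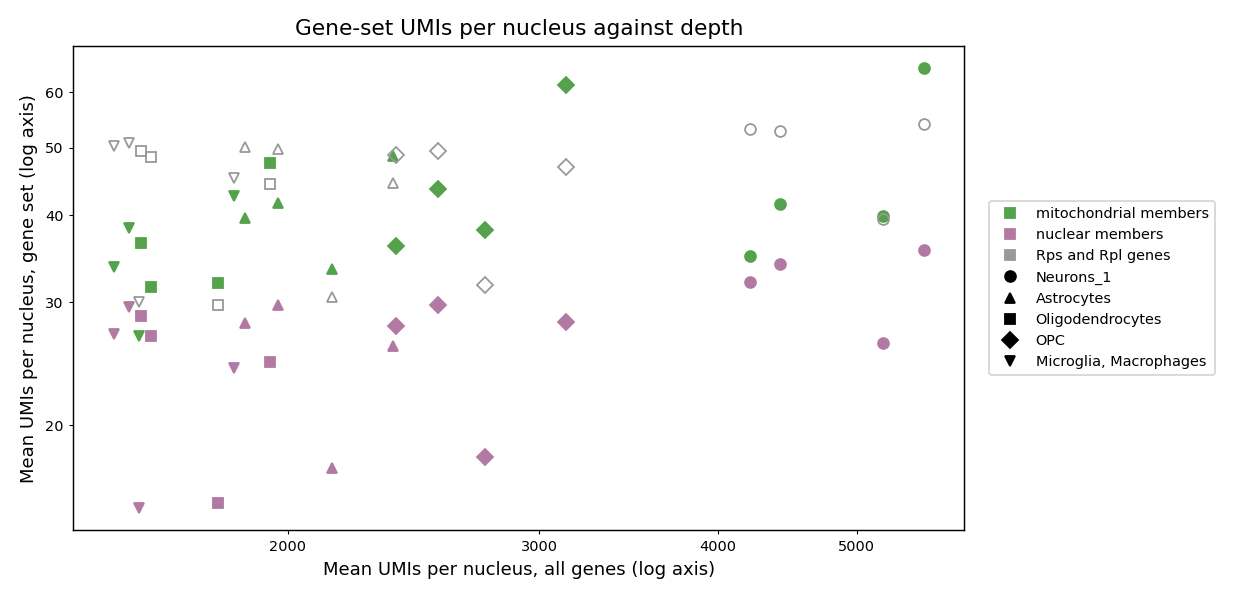
Mean UMIs per nucleus of the mitochondrial members, the nuclear members and the Rps and Rpl genes against mean UMIs per nucleus of all genes, both on log axes, for 5 main clusters (shapes) in 4 libraries. Depth differs by a factor of 2.62 to 2.92 between Neurons_1 and oligodendrocytes within a library, the mitochondrial UMIs by 1.11 to 1.37.

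Single members departed from this pattern. Of the 86 nuclear members with at least 100 UMIs in oligodendrocytes, 63 (73.3%) had a Neurons_1 to oligodendrocyte ratio of UMIs per nucleus below 1.5, compared with 22.1% of all 10024 genes at that minimum, whose median ratio was 2.55. The median was 1.26 over the nuclear members and 1.24 over the 13 mitochondrial genes, which ranged only from 1.13 to 1.38. By complex, the median was 1.27 for 38 subunits of complex I, 1.99 for the 4 of complex II, 1.15 for 8 of complex III, 1.22 for 12 of complex IV and 1.19 for 17 of complex V. The 7 assembly factors of complex I, which help build the complex without being part of it, had a median of 2.78.

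Among members with at least 100 UMIs in oligodendrocytes, the highest ratios belonged to the assembly factors Ndufaf6 (5.64) and Ndufaf5 (4.62), followed by Ndufaf7 (3.64). Among subunits, Ndufs4, an accessory subunit of complex I, reached 3.52, the core subunit Ndufs1 2.68, and Sdha, the flavoprotein of succinate dehydrogenase, 2.37. At the other end stood Cox6b2 (0.50), an isoform of a complex IV subunit best known from testis, whose ratio was 0.693, 1.06, 0.324 and 0.276 in WT repeats 1 and 2 and TRα1+m repeats 1 and 2, from 103 UMIs in oligodendrocytes. The ratio of Ndufaf6 was 5.66, 5.61, 5.30 and 5.96 in the WT and then the TRα1+m libraries of repeats 1 and 2, so the libraries differed less there. Members with a high ratio had longer genes on the whole, Ndufaf4 with 6919 bases being an exception: the median span was 24755 bases for the 12 members at 2 or more and 5986 bases for those below 1.5. Ndufs4 spans 100464 bases (chr13:114287795-114388258). Ndufaf2, the longest member with 155909 bases, had a ratio of only 1.73. The relation of span and ratio over all genes is not given. Across the 86 genes, Spearman's rho between span and ratio was 0.66 and Pearson's r of their logarithms 0.65, given as a description across genes, which share libraries and are not independent replicates.

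**Figure D3:**
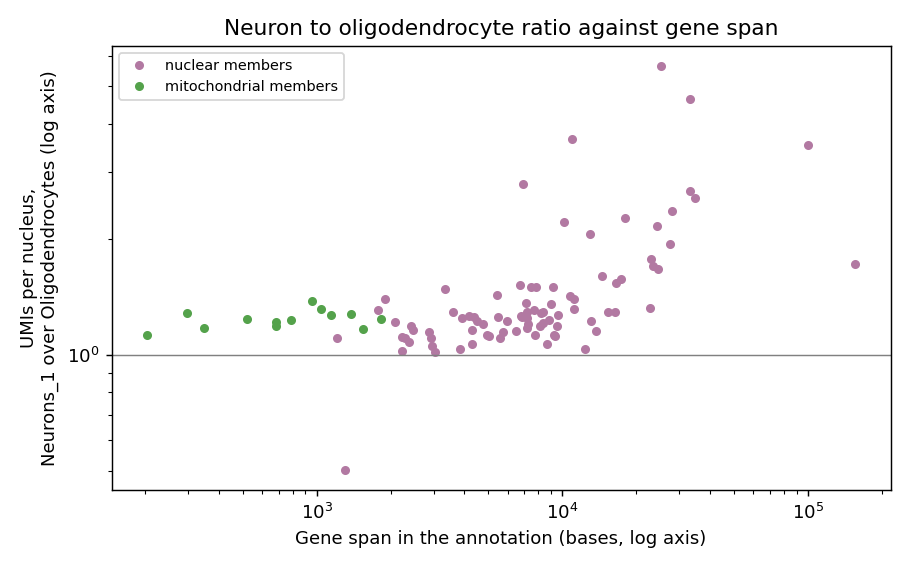
Ratio of mean UMIs per nucleus in Neurons_1 to that in oligodendrocytes against the span of the gene in the annotation, both on log axes, one point per member with at least 100 UMIs in oligodendrocytes. Short genes and the mitochondrial genes lie near 1.2, and the assembly factors Ndufaf5, Ndufaf6 and Ndufaf7 with Ndufs4 lie above 3.

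In Neurons_1 the most abundant nuclear members were subunits of complex IV. Cox4i1, a regulatory subunit, stood at 278, 317, 272 and 260 CPM in WT repeats 1 and 2 and TRα1+m repeats 1 and 2, and Cox8a, one of the smallest subunits, at 295, 200, 311 and 124 CPM. Cox4i1 varied little between libraries, whereas Cox8a was lower in repeat 2 in both genotypes. CPM values are not divided by gene length, so they rank counts and not molecules per length.

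In the other complexes the leading members reached lower counts. Ndufa4, first described in complex I and later placed in complex IV, averaged 181 ± 39.5 CPM (SD, n = 4) and Ndufs4 127 ± 7.4 CPM. Sdha and Sdhb, the catalytic subunits of complex II, averaged 114 ± 7.8 and 47.1 ± 5.3 CPM. Uqcrh and Uqcrq of complex III averaged 104 ± 29.9 and 75.6 ± 28.0 CPM. Atp5b, the catalytic beta subunit of complex V, averaged 130 ± 14.96 CPM and Atp5h 127 ± 21.4 CPM. The assembly factors Ndufaf7 and Ndufaf2 averaged 61.8 ± 10.6 and 57.8 ± 5.5 CPM. Sdha and Ndufs4 had the smallest spread relative to their mean, and Uqcrq and Cox8a the largest. Like Cox8a, Uqcrq, Uqcrh and Ndufa4 were lower in both repeat 2 libraries than in those of repeat 1.

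Isoforms known from muscle, lung or testis were scarce beside their common partners. Over all libraries of Neurons_1, Cox8a gave 40531 UMIs, and Cox8b, the heart and muscle form, 5. Cox7a2 averaged 115 CPM and its muscle form Cox7a1 1.22 CPM, Cox6a1 55.7 CPM and its muscle form Cox6a2 2.95 CPM, and Cox6b1 104 CPM and Cox6b2 1.74 CPM. The common form exceeded its partner in each of these pairs in all 5 main clusters. The genes Atp5g1, Atp5g2 and Atp5g3, which encode an identical mature subunit c of the ATP synthase, lay closer together, at 97.1, 63.1 and 85.4 CPM.

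Some of the rare forms were uneven among clusters. Cox4i2, the oxygen-sensitive partner of Cox4i1, and Ndufa4l2, a relative of Ndufa4, are both known from pericytes. Ndufa4l2 stood at 11, 35.7, 19.2 and 47.3 CPM in the neuronal sub-cluster labelled MCH, which held 174 of the 315 UMIs of this gene in Neurons_1, and at 0.412 to 1.60 CPM in GABA neurons. Cox4i2 averaged 11.5 ± 3.2 CPM in the MCH sub-cluster and 0.916 ± 0.331 CPM over Neurons_1. The same sub-cluster held the mural markers Rgs5 at 376 CPM and Vtn at 341 CPM and the endothelial marker Flt1 at 742 CPM, while GABA neurons held 2.58, 3.58 and 2.07 CPM. In the microglia and macrophage cluster, where Vtn stood at 539 CPM, Ndufa4l2 averaged 12.2 ± 2.1 CPM, from 35 UMIs. The part of vascular cells in these values was not tested.

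Cox7b2, a relative of the complex IV subunit gene Cox7b, was nearly absent from oligodendrocytes. It gave 2, 1, 3 and 0 UMIs in their 4 libraries, or 0.562 CPM on average, compared with 4.58 ± 0.79 CPM in Neurons_1 and 6.10 ± 1.16 CPM in astrocytes. The lowest astrocyte library, at 4.68 CPM, lay above the highest oligodendrocyte library, at 1.11 CPM.

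The 13 mitochondrial genes kept nearly fixed proportions across cell types. In WT repeat 1, mt-Co3, a core subunit of complex IV, made up 26.4% to 28.3% of mitochondrial-member UMIs over the 5 main clusters, and mt-Co1, the catalytic subunit, 19.0% to 19.5%. The widest range of any gene between cell types within a library was 2.88 percentage points, for mt-Atp6. The proportions differed more between experimental repeats: averaged over clusters, mt-Atp6 rose from 12.9% in repeat 1 to 19.4% in repeat 2, mt-Co1 fell from 19.4% to 14.7%, and mt-Nd3, a complex I subunit, from 1.40% to 0.543%. For 7 of the 13 genes the difference between repeats was larger than the widest range between cell types.

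**Figure D4:**
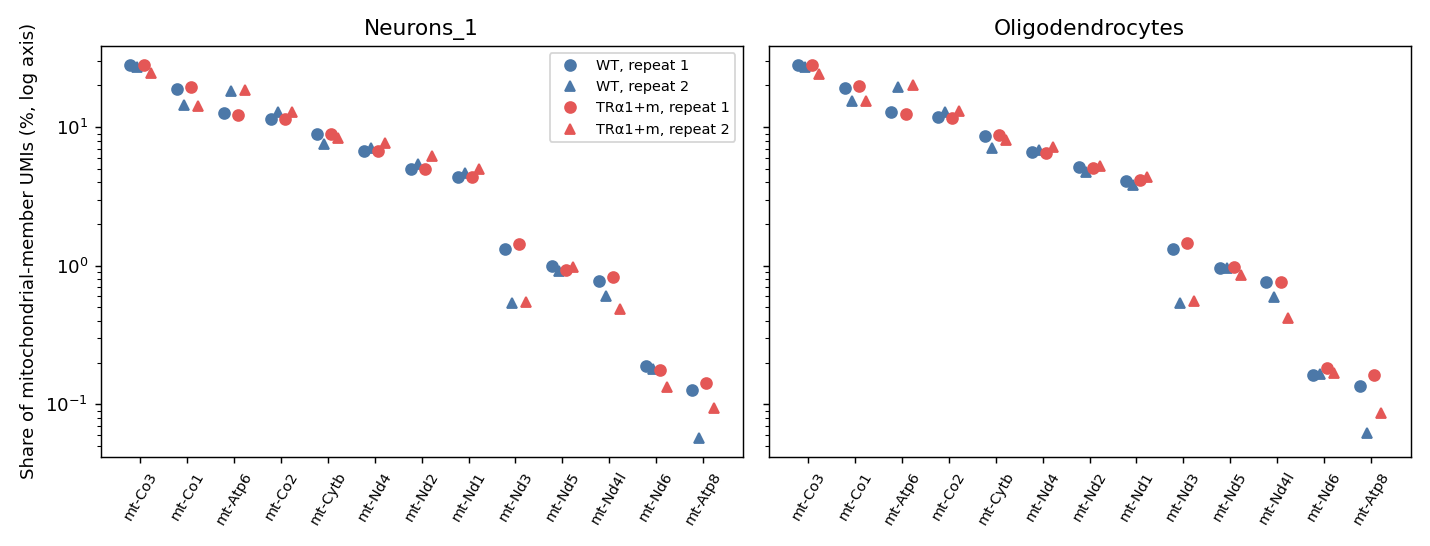
Share of each mitochondrially encoded gene among the UMIs of all 13, on a log axis, per library in Neurons_1 and oligodendrocytes. The panels resemble each other, while mt-Atp6, mt-Nd3 and mt-Atp8 separate the repeats (circles and triangles) in both genotypes.

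The comparison of genotypes asked whether the mutant receptor, which is largely kept in its unliganded state at normal hormone levels, was accompanied by other levels of these genes; thyroid hormone is a known regulator of mitochondrial gene expression. Without a term for the repeat, no member of either genome passed the test in any main cluster, although most had a lower estimate in TRα1+m. The fit with the repeat as a block, given below, called some members. Within repeats, the log2 ratio of TRα1+m to WT of the mitochondrial share in Neurons_1 was -0.18 in repeat 1 and -0.61 in repeat 2. In oligodendrocytes it was -0.23 and -0.45, in OPCs -0.17 and -0.50, in microglia and macrophages -0.15 and -0.45, and in astrocytes 0.00 and -0.40. For the nuclear members the ratio lay farther from 0 in repeat 2, at -0.35 in Neurons_1 and -0.55 in oligodendrocytes, than in repeat 1, at -0.02 and -0.12. The Rps and Rpl genes behaved like the nuclear members, with 0.08 and -0.36 in Neurons_1. Malat1, a long non-coding RNA retained in the nucleus, went the other way in repeat 2, with log2 ratios of 0.53 in Neurons_1, 0.62 in astrocytes, 0.70 in OPCs, 0.43 in microglia and macrophages and 1.23 in oligodendrocytes. In repeat 1 its ratio was 0.70 in oligodendrocytes and -0.30 to -0.15 in the other main clusters, and its part in these results was not tested. Fewer mitochondria, less RNA of each and less RNA kept from outside the nucleus cannot be told apart in such sums. What set the TRα1+m library of repeat 2 apart was not tested.

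Gene by gene in Neurons_1, edgeR's quasi-likelihood test called 0 of the 13 mitochondrial genes and 0 of the 92 nuclear members tested, at a Benjamini-Hochberg adjusted p of 0.05; over all 19926 genes it called 0%. At an unadjusted p under 0.05 there were 7 mitochondrial and 2 nuclear members and 0.969% of all genes, and DESeq2 called 0 of either. mt-Co3 stood at 2656 and 3188 CPM in WT and at 2350 and 1891 CPM in TRα1+m (repeats 1 and 2 in turn), a log2 fold change of -0.52 ± 0.15 (SE). mt-Nd5, a complex I subunit, stood at 93.6 and 107 CPM against 77.6 and 75.2 CPM (-0.46 ± 0.13), and mt-Cytb, the catalytic subunit of complex III, at 839 and 883 against 736 and 633 CPM (-0.39 ± 0.11). In these genes both TRα1+m libraries lay below both WT libraries.

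This non-overlap, counted only where TRα1+m was the lower, held for 9 of the 13 mitochondrial genes in Neurons_1. It held for 14 of 92 nuclear members there, and for 5.71% of all genes tested. Besides those named, the log2 fold changes in Neurons_1 were -0.48 for mt-Co2, -0.43 for mt-Nd4, -0.42 for mt-Nd1, -0.68 for mt-Nd6, -0.37 for mt-Nd2, -0.42 for mt-Co1, -0.50 for mt-Atp6 and -0.50 for mt-Nd4l. mt-Nd3 and mt-Atp8, at -0.27 ± 0.59 and -0.02 ± 0.41, had larger errors than differences. In oligodendrocytes 8 of 13 mitochondrial genes had both TRα1+m libraries below both WT libraries, where 20.6% of all genes did. In OPCs 8 did, where 11.1% of all genes did. In microglia and macrophages 5 did, where 13.3% of all genes did, and in astrocytes 1, where 12.5% did. The nuclear members with this pattern were closer to these shares, at 23 of 89 (25.8%) in oligodendrocytes and 13 of 87 (14.9%) in OPCs. They numbered 13 of 85 (15.3%) in microglia and macrophages and 12 of 90 (13.3%) in astrocytes. Compared within repeats, TRα1+m lay below WT in both repeats for 12 mitochondrial genes and 42 nuclear members in Neurons_1, where 15.6% of all genes did. The counts were 5 and 46 in astrocytes (26.3% of all genes), 12 and 68 in oligodendrocytes (35.2%), 10 and 41 in OPCs (21.4%), and 10 and 56 in microglia and macrophages (25%). Members share the same libraries, and the mitochondrial genes kept nearly fixed proportions across cell types. These counts are therefore not counts of independent genes.

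The other main clusters gave 0 calls among the members as well. Besides the 13 mitochondrial genes, the nuclear members tested numbered 87 in OPCs, 85 in microglia and macrophages, 89 in oligodendrocytes and 90 in astrocytes, and edgeR called 0.103% of all genes in oligodendrocytes and 0% in the other 3 clusters. Unadjusted p-values under 0.05 numbered 5 and 1 for mitochondrial and nuclear members in OPCs, 0 and 1 in microglia and macrophages, 1 and 1 in oligodendrocytes, and 0 and 0 in astrocytes. All genes reached that p in 1.64%, 2.16%, 5.32% and 1.72% of cases in the same order of clusters, and DESeq2 again called 0 members. The median log2 fold change of the mitochondrial genes was -0.43 in Neurons_1 and -0.37 in OPCs, then -0.27 in microglia and macrophages, -0.24 in oligodendrocytes and -0.14 in astrocytes, while that of all genes lay between -0.0017 and 0.011. That of the nuclear members ranged from -0.23 in Neurons_1 to -0.17 in astrocytes. In microglia and macrophages, nuclear members were called once the TRα1+m library of repeat 1 was left out. That fit set only the TRα1+m library of repeat 2 against both WT libraries. This library held the lowest nuclear-member share of the cluster, 0.966%. The share of all genes called in that fit is not given.

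**Figure D5:**
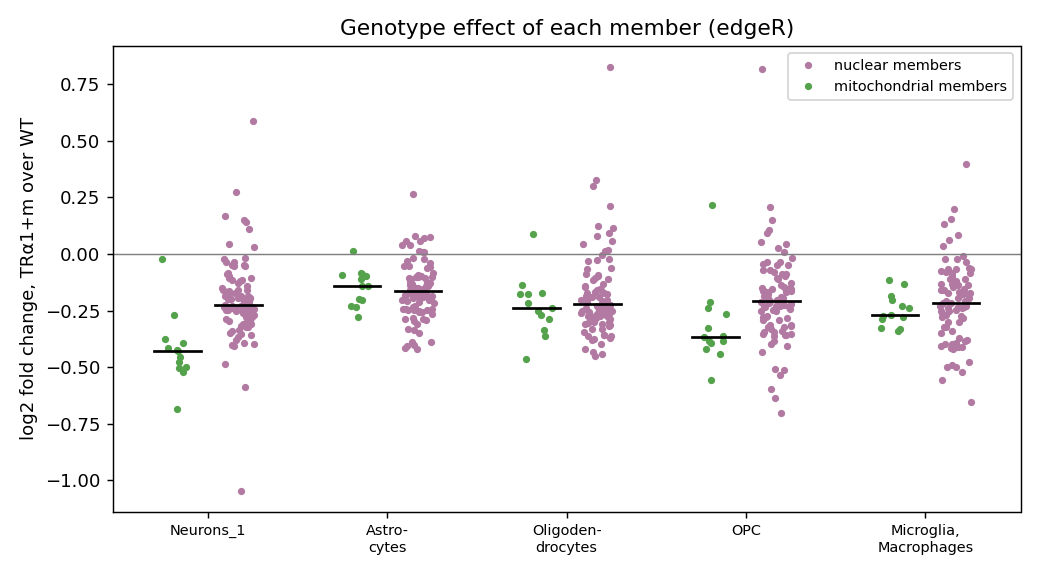
log2 fold change between TRα1+m and WT (edgeR, n = 2 libraries each) of each mitochondrial and nuclear member in 5 main clusters; the bars are medians and values below 0 are lower in TRα1+m. The fit has no term for the repeat, and no point passed its adjusted threshold. The medians run from -0.14 to -0.43 for the mitochondrial genes.

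The lowest and highest mitochondrial values outside neurons often belonged to genes of low count. In astrocytes they ran from -0.28 ± 0.56 for mt-Atp8 to 0.01 ± 0.77 for mt-Nd3, in oligodendrocytes from -0.46 ± 0.33 for mt-Nd4l to 0.09 ± 0.48 for mt-Atp8, and in OPCs from -0.56 ± 0.30 for mt-Nd6 to 0.22 ± 0.72 for mt-Atp8. In microglia and macrophages mt-Atp6 was at -0.34 ± 0.30 and mt-Atp8 at -0.12 ± 0.51.

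Among nuclear members Cox5a, which encodes a matrix-side subunit of complex IV, had the smallest unadjusted p in 4 of the 5 main clusters. In Neurons_1 it stood at 129 and 139 CPM in WT and 102 and 98.0 CPM in TRα1+m (log2 fold change -0.49 ± 0.11), in oligodendrocytes at 280 and 271 against 207 and 183 CPM (-0.43 ± 0.17), in microglia and macrophages at 329 and 301 against 223 and 178 CPM (-0.65 ± 0.25), and in astrocytes at 244 and 239 against 208 and 169 CPM (-0.35 ± 0.16). The TRα1+m libraries lay below both WT libraries in each of these clusters. The adjusted p was 0.89 in oligodendrocytes and 1.0 in the other clusters by edgeR.

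The other nuclear members of lowest p came from several complexes. In Neurons_1 they were Ndufb9 (-0.35 ± 0.13), Ndufb8 (-0.32 ± 0.14), the core subunit Ndufs8 (-0.35 ± 0.16) and Cox4i1 (-0.23 ± 0.11). In OPCs Ndufs8 stood at -0.60 ± 0.25, the assembly factor Ndufaf3 at -0.64 ± 0.31, Ndufb11 at -0.36, Ndufb9 at -0.32 and Atp5h at -0.34. In oligodendrocytes the iron-sulphur protein Uqcrfs1 stood at -0.36, Ndufs4 at -0.34, Ndufb8 at -0.32 and Atp5d at -0.30. In astrocytes Atp5g3 stood at -0.33, Ndufaf3 at -0.29, Ndufaf5 at -0.30 and Atp5d at -0.25, and in microglia and macrophages Atp5d at -0.48, Ndufb5 at -0.50, Ndufb9 at -0.40 and Ndufb11 at -0.39. None of these passed the adjusted threshold.

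Fitting the repeat as a block changed some calls, since the repeats pair the libraries. In OPCs 6 mitochondrial genes were called lower in TRα1+m: mt-Co3 (-0.45 ± 0.07, edgeR adjusted p = 1.4e-07), mt-Co1 (-0.40 ± 0.08), mt-Co2 (-0.38 ± 0.08), mt-Atp6 (-0.35 ± 0.08), mt-Nd2 (-0.38 ± 0.10) and mt-Nd1 (-0.40 ± 0.11). The block called 0.569% of all genes in OPCs. In oligodendrocytes it called 4.35% of all genes, with mt-Nd4l (-0.51 ± 0.16) of 13 mitochondrial genes and Atp5g1 (-0.51 ± 0.16) of 89 nuclear members lower. In astrocytes it called 1.28% of all genes and 1 of 90 nuclear members, Ndufa12 of complex I (-0.45 ± 0.12). Nuclear members were thus called no more often than all genes in either cluster. The block called no member in Neurons_1, where 0.01% of all genes were called, or in microglia and macrophages, where 0.335% were. The block leaves 1 residual degree of freedom, so its errors and p-values lean on the spread shared over genes. They do not measure the spread between pools of a single gene. The log2 ratio of the summed mitochondrial share in OPCs was -0.17 in repeat 1 and -0.50 in repeat 2, a wider gap than the errors given.

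In the 14 sub-clusters with enough nuclei, 12 of neurons besides astrocytes and tanycytes, edgeR without the block called 0 of 173 pairs of mitochondrial gene and sub-cluster and 0 of 1204 pairs with nuclear members, against 0.0031% over all genes. Unadjusted p-values under 0.05 numbered 52 and 27, where 0.724% to 3.44% of all genes of a sub-cluster had one, and DESeq2 called 0. The summed mitochondrial share was lower in TRα1+m in 13 of 14 sub-clusters in repeat 1 and in 14 of 14 in repeat 2, with log2 ratios from -0.38 to 0.01 and from -0.83 to -0.07. For the nuclear members it was lower in 9 and in 14 sub-clusters. The sub-clusters were cut from the same libraries, so a shift of a whole library moves all of them. Counts of sub-clusters, here and below, are therefore not counts of replicates.

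With the block, 30 of 173 mitochondrial and 20 of 1204 nuclear pairs were called, all lower in TRα1+m, where 0.54% of all pairs were called. That share is pooled over the sub-clusters and is not given for each. The counts by sub-cluster below therefore set none of them apart. Glutamatergic Neurons_2 held 8 of the mitochondrial calls, such as mt-Atp6 (-0.44 ± 0.06) and mt-Nd4 (-0.42 ± 0.07), and the sub-cluster labelled Orexin+ held 6, such as mt-Co2 (-0.67 ± 0.12) and mt-Co3 (-0.60 ± 0.11). POMC/CART neurons held 4, and the vasopressin, CART_1, GABA and MCH sub-clusters 3 each. Cox5a fell in 5 of the sub-clusters, from -0.70 ± 0.17 in POMC/CART neurons to -0.47 ± 0.08 in GABA neurons. The MCH sub-cluster held 9 of the nuclear calls, among them Cox5b (-0.94 ± 0.19) and Cox6c (-0.76 ± 0.17). Its vascular markers differed with the genotype in the opposite direction: the summed endothelial markers stood at 496 and 1582 CPM in WT and at 1148 and 2404 CPM in TRα1+m, and the summed mural markers at 281 and 939 against 710 and 1191 CPM. Both lists were higher in TRα1+m within each repeat, and their part in these calls was not tested.

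Whether the genotype effect in glia differed from that in neurons was tested as an interaction. edgeR called 0 of 52 pairs of mitochondrial gene and glial cluster and 0 of 368 nuclear pairs, against 0.0694% of all pairs, with 1 of each at an unadjusted p under 0.05. DESeq2 was not run on this interaction. The smaller median of the mitochondrial genes in astrocytes than in Neurons_1 is therefore not shown to be a difference between the cell types, although the summed ratios given above lay nearer 0 in astrocytes than in Neurons_1 in both repeats.

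Of 31 further genes of the pathway, among them the transcription factors Nrf1 and Gabpa, the coactivator Ppargc1a, the mitochondrial polymerase Polrmt and the complex IV assembly factors Sco1, Sco2 and Cox11, 31 were tested in Neurons_1, astrocytes and oligodendrocytes, 26 in microglia and macrophages and 29 in OPCs. edgeR called 0 of them between genotypes in each cluster, with 1 at an unadjusted p under 0.05 in oligodendrocytes and in OPCs and 0 elsewhere. Their median log2 fold change was -0.06 in Neurons_1 and -0.17 in OPCs. With the block, 1 of the 31 fell in oligodendrocytes, where 4.35% of all genes were called. It was Letm1, an ion exchanger of the inner membrane (-0.79 ± 0.22).

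Nuclear members were called far more often between experimental repeats than between genotypes, with or without the block. The test of the repeat carried a genotype term, and so held the same terms as the block fit. In repeat 2, 41 of 92 nuclear members fell and 7 rose in Neurons_1, where 12% of all genes fell and 13.2% rose. In astrocytes 49 of 90 fell and 1 rose, where 11% and 9.64% of all genes did, and in oligodendrocytes 48 of 89 fell and 1 rose, where 7.27% and 5.15% did. In OPCs 42 of 87 fell, where 5.68% of all genes did, and in microglia and macrophages 37 of 85, where 3.04% did; no nuclear member rose in these 2 clusters, where 5.73% and 3.22% of all genes rose. DESeq2 called 39, 40, 33, 21 and 17 lower, and the share of all genes it called is not given. Each repeat is 1 WT and 1 TRα1+m library from its own pools of mice. The counts of calls therefore describe repeats, in which mice and their handling cannot be told apart. Fits of the repeat that left out 1 library carried no genotype term. They therefore differ in the model as well as in the libraries. Without WT repeat 1 or without TRα1+m repeat 1, edgeR called fewer nuclear members in each main cluster. The shares of all genes called in these fits are not given, so this drop is not a result about the members.

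In oligodendrocytes the 10 members of smallest p fell in repeat 2. Atp5k, the e subunit of the ATP synthase, stood at 365 and 350 CPM in the repeat 1 libraries of oligodendrocytes and at 118 and 82.4 CPM in those of repeat 2 (log2 fold change -1.86 ± 0.16, edgeR adjusted p = 5.5e-16). Cox6c of complex IV stood at 706 and 630 CPM and then at 343 and 192 CPM (-1.38 ± 0.16), and Uqcr11 of complex III at 274 and 292 CPM and then at 129 and 71.7 CPM (-1.55 ± 0.17). In each of these genes the repeats did not overlap, and the TRα1+m library of repeat 2 was the lowest. Atp5mpl, Atp5md, Ndufa3, Ndufc1, Atp5l, Ndufb1-ps and Uqcr10 fell there as well, with log2 fold changes from -1.78 to -1.38. Most of these were also among the genes of smallest p in the other glia, where Atp5k reached -1.87 in OPCs and Uqcr10 -1.87 in microglia and macrophages. In Neurons_1 the genes of smallest p that fell were Ndufb1-ps (-1.01), Cox7b (-0.93), Ndufv3 (-1.14), Atp5l (-0.96), Ndufb2 (-0.75), Atp5md (-1.37), Ndufb4 (-0.95), Ndufaf4 (-0.63) and Ndufs5 (-0.78).

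By complex, 10 of 14 complex IV members fell in oligodendrocytes, 5 of 8 of complex III, 22 of 38 of complex I and 9 of 17 of complex V. None of the 4 of complex II fell, and Sdhd, its membrane anchor, rose (0.74 ± 0.22). In Neurons_1 those that rose included Ndufb5 (0.56 ± 0.07), Cox7a2l (0.50 ± 0.08), Sdhd (0.48 ± 0.11), Ndufa9, Atp5f1 and Atp5a1. The mitochondrial genes moved both ways. mt-Nd3 fell in all 5 main clusters, from -1.28 ± 0.13 in Neurons_1 to -1.68 ± 0.12 in astrocytes. mt-Atp6 rose in 4 of these clusters, by 0.62 ± 0.10 in Neurons_1. In the same 4 clusters mt-Atp8, which shares bases with mt-Atp6, fell, with a log2 fold change of -0.83 in Neurons_1. Its low counts are uncertain because of the shared bases. The summed Rps and Rpl share moved with the nuclear members, from 1.46% and 1.54% of UMIs in repeat 1 to 1.15% and 0.911% in repeat 2. Of the 31 further pathway genes, Cox17, a copper chaperone of complex IV, and Atpif1, the inhibitor of the ATP synthase, fell in all 5 main clusters, and Slirp, which binds mitochondrial messenger RNA, fell in 4. In all, 8 of the 31 rose and 5 fell in Neurons_1.

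The promoters of the nuclear members were searched for letters known to bind factors that control them. RefSeq promoters on GRCm38.p6, from 250 bases before to 50 after the start, were at hand for 75 of the 94 symbols. On either strand, GCGCATGCG, bound by NRF1, was found in 10 of them (13.3%) and in 1.95% of 27025 symbols, and AAGATGGCG, bound by YY1, in 8 (10.7%) and 1.64%. CCGGAAGT, bound by GABP, was found in 5 (6.67%) and 4.31%, and TCAAGGTCA, bound by oestrogen-related receptors, in 2 (2.67%) and 0.466%. A match is a description of the letters and not a bound site. Whether members with a motif fell in repeat 2 more often than others was not tested. The promoters of Uqcr11 (chr10:80406772-80407071, minus strand) and Atp5j2 (chr5:145191492-145191791, minus strand) are shown because both genes fell in repeat 2 in oligodendrocytes and they hold different motifs. Capitals mark the GABP and then the NRF1 letters in Uqcr11 and the YY1 letters in Atp5j2.
Uqcr11: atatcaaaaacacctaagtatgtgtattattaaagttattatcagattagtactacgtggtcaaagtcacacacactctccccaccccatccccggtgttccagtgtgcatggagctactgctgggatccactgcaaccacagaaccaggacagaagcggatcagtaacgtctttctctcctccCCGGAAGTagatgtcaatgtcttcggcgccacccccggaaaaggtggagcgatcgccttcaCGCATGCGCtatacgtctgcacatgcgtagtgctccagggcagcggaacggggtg
Atp5j2: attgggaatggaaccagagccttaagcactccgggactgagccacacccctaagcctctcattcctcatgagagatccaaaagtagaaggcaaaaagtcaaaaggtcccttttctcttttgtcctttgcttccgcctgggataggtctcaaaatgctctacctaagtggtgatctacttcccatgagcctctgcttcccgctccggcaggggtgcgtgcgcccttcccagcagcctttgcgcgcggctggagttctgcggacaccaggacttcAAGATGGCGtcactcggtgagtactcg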

How the data were processed

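The authors counted UMIs per gene and nucleus with Cell Ranger 5.0.1 on mm10 (GRCm38), introns included, removed nuclei by limits on counts, features, mitochondrial share and doublet score, and clustered the rest in Seurat. As deposited by the authors, the counts are whole numbers without normalisation, for 68190 barcodes, of which 56386 carry the authors' annotation; kept nuclei had at least 901 UMIs and 701 genes. Counts were summed per library and cluster, with at least 10 nuclei per library in a sub-cluster. edgeR 4.0.16 in R 4.3.3 (filterByExpr, TMM, robust quasi-likelihood F-test, two-sided) tested all genes, with Benjamini-Hochberg adjustment within a cluster at 0.05, after a check on simulated data. CPM are UMIs scaled to a total of 1e+06 per library and cluster. Values are mean ± SD over libraries, and fold changes ± SE. DESeq2 1.42.0, RLE factors, bias-adjusted deviances, no filter, the block, left-out libraries and tables without mitochondrial genes were alternatives.

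Same-numbered libraries come from the same experimental repeat, and differences between repeats correlated between genotypes across genes (r of 0.39 to 0.67), so they pair. The block leaves 1 residual degree of freedom. Gene positions are from GENCODE on GRCm38. Named were all mitochondrial genes in Neurons_1, those of lowest and highest fold change in other main clusters, called nuclear members, at most 10 per cluster, or else the 5 of lowest p, the 2 most abundant per complex and fixed isoform pairs. Members, lists and rules were chosen with earlier results of these data known. Cox7b2, Atp5j2, genes that rose in repeat 2 and genes named for the ratio between neurons and oligodendrocytes were chosen after their values were seen. One result is not reported here, doublets were not scored again, and the supplementary tables were not used here.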

Additional observations from a re-analysis of the deposited data

Results flagged for a closer look

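The barcodes that the authors' annotation does not list enter no comparison. They numbered 2581 to 3250 per library. Mitochondrially encoded genes held 4.54% of their UMIs in WT repeat 1, 4.21% in WT repeat 2, 4.06% in TRα1+m repeat 1 and 3.08% in TRα1+m repeat 2, above the 0.937% to 1.34% of kept nuclei. More than 5% mitochondrial UMIs were found in 29.4% to 48.2% of them. The TRα1+m library was the lower of each repeat.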

How the results depend on the processing

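Blocking on the repeat raised the members called between genotypes from 0 to 1 nuclear member in astrocytes, 1 mitochondrial and 1 nuclear member in oligodendrocytes, 6 mitochondrial genes in OPCs and, over sub-clusters, 30 mitochondrial and 20 nuclear pairs; it changed no other such count, and mt-Nd3 in astrocytes turned to -0.080. The block leaves 1 residual degree of freedom. Without the filter on low counts, 1 mitochondrial gene was called in OPCs, 9 pairs in sub-clusters and 8 genes between repeats in Neurons_1. DESeq2 called fewer mitochondrial genes between repeats, 4 in astrocytes, 2 in oligodendrocytes and 1 each in OPCs and in microglia and macrophages, and 21 and 17 nuclear members in the last 2 clusters. The shares of all genes called without the filter or by DESeq2 are not given, so these counts are not results about the members. The cause of these changes was not tested. RLE factors, DESeq2, bias-adjusted deviances and no filter kept the direction and side of the threshold of 46 named genotype results each. Leaving out 1 library leaves an arm with 1 library, assumed to vary like the others. Such fits of the repeat also carried no genotype term, unlike the fit on all libraries. The shares of all genes called without a library are not given, so these counts are not results about the members. Calls between genotypes then numbered 0 to 1 for mitochondrial genes and 0 to 1 for nuclear members in oligodendrocytes, 0 to 1 and 0 to 11 in microglia and macrophages, and 0 to 4 for each genome over sub-cluster pairs. Calls between repeats ranged, for mitochondrial genes, from 1 to 7 in Neurons_1, 2 to 8 in astrocytes, 0 to 3 in oligodendrocytes and 1 to 7 in microglia and macrophages, and for nuclear members from 10 to 59, 29 to 58, 0 to 47 and 24 to 43. The low ends came without a repeat 1 library. The whole-library log2 ratio ranged from -0.53 to 0.14 for nuclear members, the ends being without TRα1+m repeat 1 and 2, and from -0.43 to -0.22 for mitochondrial genes; these values set 1 repeat against both, so the sign for nuclear members rests on an unbalanced comparison. mt-Atp8 changed sign in each main cluster, ranging from -0.47 to 0.48 in Neurons_1, -1.07 to 0.36 in astrocytes, -0.51 to 0.74 in oligodendrocytes, -0.94 to 1.13 in OPCs and -0.68 to 0.63 in microglia and macrophages, as did mt-Nd3, from -1.24 to 0.32 in Neurons_1 and -1.22 to 0.93 in astrocytes.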
